A study of Mus musculus with 16 samples.

Results

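The neutrophil granule and surface genes are a set of 38 listed genes, of which 35 were found by symbol among the 19505 genes measured on the arrays. Fpr1, Fpr2 and Ly6g were not matched to a probe by symbol and were not analysed here. The list was given by gene name, not by a cut-off on any measured value, but earlier results of these data were known. Each array (Clariom S, an Affymetrix gene expression array) measured RNA from cells of the mouse olfactory mucosa, the sheet of tissue in the nose that holds the olfactory sensory neurons.

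All mice carried S100a5-tauGFP, a reporter in which green fluorescent protein is made under the control of S100a5, a gene of active olfactory sensory neurons, and they were 24 animals of both sexes aged 7 to 12 weeks. They spent 40 hours singly in clean-air chambers at 3.1 L/min and from hour 26 received 10-second pulses every 20 min, of indole/ionone odorant in the odor arm and of filtered air in the vehicle arm. Cells of 3 mice at a time were pooled and sorted by fluorescence. The 16 samples fell into 4 groups of 4: odor GFP+, odor GFP-, vehicle GFP+ and vehicle GFP-. Pools of mice, not single mice, are the replicates, and the spread between samples is the spread between pools. The labels name no ionone isomer and no odorant dose.

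Neutrophils are short-lived white blood cells that carry their killing proteins in preformed granules. These granules are made in turn as the cell matures in the bone marrow: azurophil granules with myeloperoxidase and serine proteases first, then specific granules with lactoferrin and lipocalin, then gelatinase granules. Receptors for chemoattractants and adhesion molecules of the surface appear late and guide the mature cell out of the blood. RNA of early granule genes is therefore typical of immature cells in marrow, and RNA of late surface genes of mature cells in blood and tissue.

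Values were taken as log2 levels. The median of the 23 background probes, which match no mouse gene, lay between 5.63 and 6.05 over the 16 arrays, and a level under the median of its own array has no readable size. Markers of mature olfactory sensory neurons were compared between the fractions. This does not test the fraction labels, since both fractions held these markers at high levels. All 12 of 12 genes of mature olfactory sensory neurons lay over background in every sample of all 4 groups. Their median difference between fractions was 0.19 in odor pools and 0.25 in vehicle pools, beside 0.11 in both arms over all genes. Ano2, a chloride channel of the neuron's cilia, had the largest difference of these genes. It averaged 17.08 ± 0.07 in odor GFP+ and 16.63 ± 0.07 in odor GFP- samples (SD, n = 4 each). Both fractions thus carried high levels of neuron RNA. The GFP- fraction is defined only by lack of fluorescence, and no sort for leukocytes is described in the labels.

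All 35 measured members were lower in GFP+ than in GFP- cells of the odor pools, and all 35 in the vehicle pools (limma on within-pool differences, Benjamini-Hochberg adjusted over all genes). None was higher in either arm. Over all genes tested, 10.6% were called lower in odor pools and 10.8% in vehicle pools. The median difference of the members, GFP+ minus GFP-, was -5.45 in each arm on the log2 scale. Of the 10 genes of the whole array with the lowest differences, 8 were members in odor pools and 8 in vehicle pools. The list was chosen with earlier results of these data known, so this count is a description and not a test. Bulk samples cannot tell apart fewer cells of a type and less RNA per cell.

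**Figure D1:**
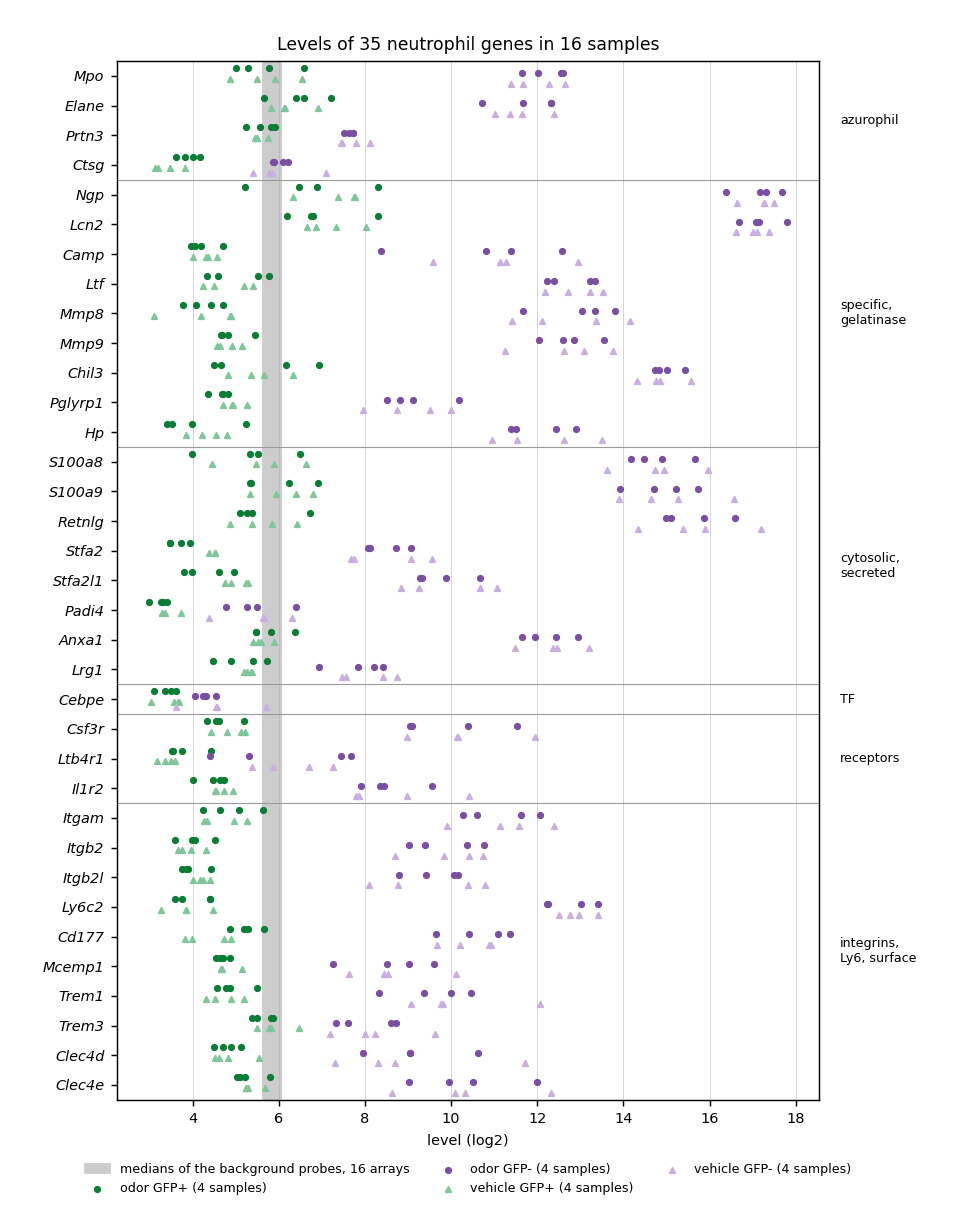
Levels (log2, x axis) of the 35 members in every sample, grouped by role, with 4 points per group; the grey band spans the background medians of the 16 arrays. Of the 35 members, 33 had no overlap between the 8 GFP+ and the 8 GFP- samples, and 23 lay under background in all 8 GFP+ samples. The same counts over all genes were not made.

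Most members had no readable level in GFP+ cells. 23 of 35 lay under the background median in all 8 GFP+ samples, while 31 of 35 lay over it in all 8 GFP- samples. Only Lcn2 was over it in all 8 GFP+ samples. Over all 19505 genes, 11865 lay over the background median in at least 4 of the 16 arrays. The shares of all genes under or over it in all 8 samples of a fraction were not counted. The number of members over background in a GFP+ sample was 10, 3, 5 and 3 in odor pools 1 to 4 and 8, 4, 6 and 5 in vehicle pools 1 to 4. For the genes under background a fold change is a lower bound, taken against the background median of each GFP+ array.

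The specific and gelatinase granule genes differed widely between fractions. All 9 of 9 were lower in GFP+ cells in each arm, with a median difference of -8.02 in odor pools and -8.08 in vehicle pools. Ngp encodes neutrophilic granule protein. Its level was 8.31, 6.90, 5.23 and 6.47 in odor GFP+ samples, against 17.68, 17.17, 16.38 and 17.30 in odor GFP- samples of pools 1 to 4. In the vehicle arm it was 7.76, 7.78, 6.32 and 7.37 in GFP+ samples, against 17.50, 17.27, 16.63 and 17.26 in GFP- samples. Every GFP+ sample lay far under every GFP- sample. Within pools the difference of Ngp, GFP+ minus GFP-, was -10.41 ± 0.25 (SE) on the log2 scale in odor pools (adjusted p = 1.04e-09) and -9.86 ± 0.25 in vehicle pools (adjusted p = 1.33e-09). With 1 of 4 odor GFP+ samples under background, its odor difference was -10.27 when values were raised to background.

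Lcn2, the iron-siderophore binding lipocalin that many epithelia also make, had levels of 8.31, 6.75, 6.18 and 6.79 in odor GFP+ samples, against 17.80, 17.08, 16.69 and 17.15 in odor GFP- samples. In vehicle pools its levels were 8.02, 6.87, 6.66 and 7.33 in GFP+ samples, against 17.39, 17.00, 16.61 and 17.10 in GFP- samples. No samples of the 2 fractions overlapped. In the GFP+ sample of pool 3 of each arm, Lcn2 lay under the 90th percentile of the background probes (6.71 in both). The within-pool difference was -10.17 ± 0.19 in odor pools (adjusted p = 8.53e-11) and -9.81 ± 0.19 in vehicle pools (adjusted p = 1.28e-10), a level 1156-fold and 896.2-fold lower in GFP+ cells. Chil3, a chitinase-like lectin that some macrophages also make, was at 6.94, 6.16, 4.66 and 4.50 in odor GFP+ samples, against 15.44, 14.83, 14.73 and 15.01 in odor GFP- samples. In vehicle pools it was at 5.36, 5.66, 4.81 and 6.34 in GFP+ samples, against 15.56, 14.86, 14.31 and 14.77 in GFP- samples. Its difference was -9.44 ± 0.34 in odor pools and -9.33 ± 0.34 in vehicle pools, with 2 of 4 and 3 of 4 GFP+ samples under background, and -8.79 and -8.89 with values raised to background.

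The other members of this class were under background in every GFP+ sample. Ltf, the iron-binding lactoferrin, was at least 119.9-fold lower in odor GFP+ cells and at least 135.1-fold lower in vehicle GFP+ cells. The collagenase gene Mmp8 was at least 134.6-fold and 121.4-fold lower in the odor and vehicle arms. Mmp9, the gelatinase that names its granule, was at least 116.9-fold and 115.1-fold lower. Hp, haptoglobin, which the liver also makes, was at least 71.7-fold and 79.8-fold lower. Pglyrp1, a peptidoglycan binding protein, had the smallest difference of the class, at least 9.64-fold lower in odor pools and 9.27-fold lower in vehicle pools. Camp, the cathelicidin precursor, was at least 29.7-fold lower in odor pools and 42.3-fold lower in vehicle pools, with the largest standard error of all members (a difference of -6.56 ± 0.66 in odor pools).

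The azurophil granule genes fell into a pair with large differences, Mpo and Elane, and a pair with smaller ones, Prtn3 and Ctsg. All 4 of 4 were lower in GFP+ cells in each arm, with a median difference of -3.70 in odor pools and -3.99 in vehicle pools. Mpo encodes myeloperoxidase, which makes hypochlorous acid. Its level was 6.58, 5.78, 5.0006 and 5.29 in odor GFP+ samples, against 12.54, 11.64, 12.60 and 12.03 in odor GFP- samples. Vehicle pools had 5.92, 4.86, 6.54 and 5.48 in GFP+ samples, against 12.66, 11.67, 12.28 and 11.40 in GFP- samples. The fractions did not overlap, and 5 of the 8 GFP+ samples were under background. The within-pool difference was -6.54 ± 0.28 in odor pools (adjusted p = 2.33e-08) and -6.30 ± 0.28 in vehicle pools (adjusted p = 3.02e-08).

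Elane, neutrophil elastase, was at 7.21, 5.65, 6.57 and 6.39 in odor GFP+ samples, against 12.33, 10.72, 12.31 and 11.66 in odor GFP- samples. The vehicle samples of Elane were 6.15, 5.81, 6.11 and 6.90 in GFP+ cells, against 12.38, 11.01, 11.64 and 11.36 in GFP- cells. All GFP+ samples lay under all GFP- samples, with differences of -5.30 ± 0.24 in odor pools and -5.35 ± 0.24 in vehicle pools. Prtn3, proteinase 3, was at 5.57, 5.91, 5.82 and 5.25 in odor GFP+ samples, against 7.72, 7.51, 7.73 and 7.63 in odor GFP- samples. Vehicle pools had 5.50, 5.44, 5.75 and 5.49 in GFP+ samples, against 8.11, 7.44, 7.48 and 7.80 in GFP- samples. All 4 vehicle and 3 of 4 odor GFP+ samples lay under background. Prtn3 was at least 3.66-fold lower in vehicle GFP+ cells, and its odor difference was -2.01 ± 0.18 as deposited and -1.74 ± 0.14 with values raised to background. Ctsg, cathepsin G, was close to background in GFP- cells, at 6.02 ± 0.17 in odor pools and 6.03 ± 0.73 in vehicle pools (SD, n = 4 each). With values raised to background its difference was -0.12 in odor pools (adjusted p = 0.612) and -0.36 in vehicle pools (adjusted p = 0.294), so its call rested on values under background.

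Promoter windows of 5 of these genes are shown because granule genes are textbook targets of C/EBP and PU.1, factors of the myeloid lineage, and because these genes differed together between the fractions. Each runs 5′ to 3′ on the gene's strand from 250 bases before to 50 after its RefSeq start in GRCm38.p6. Capitals mark matches, on either strand, to TTNNGNAA (a C/EBP pattern) or GAGGAAGT (a PU.1 pattern).
Ngp, chr9:110419558-110419857, plus strand: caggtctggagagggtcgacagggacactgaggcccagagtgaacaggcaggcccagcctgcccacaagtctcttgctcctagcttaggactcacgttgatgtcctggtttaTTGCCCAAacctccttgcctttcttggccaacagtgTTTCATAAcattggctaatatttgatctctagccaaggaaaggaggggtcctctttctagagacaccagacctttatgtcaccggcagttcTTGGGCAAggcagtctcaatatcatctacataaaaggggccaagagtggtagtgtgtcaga
Lcn2, chr2:32387690-32387989, minus strand: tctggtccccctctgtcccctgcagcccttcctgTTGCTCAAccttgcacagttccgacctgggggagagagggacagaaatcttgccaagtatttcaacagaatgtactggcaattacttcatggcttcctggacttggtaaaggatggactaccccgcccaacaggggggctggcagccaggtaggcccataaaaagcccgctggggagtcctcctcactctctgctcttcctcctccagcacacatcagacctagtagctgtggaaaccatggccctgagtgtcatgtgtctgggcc
S100a8, chr3:90668821-90669120, plus strand: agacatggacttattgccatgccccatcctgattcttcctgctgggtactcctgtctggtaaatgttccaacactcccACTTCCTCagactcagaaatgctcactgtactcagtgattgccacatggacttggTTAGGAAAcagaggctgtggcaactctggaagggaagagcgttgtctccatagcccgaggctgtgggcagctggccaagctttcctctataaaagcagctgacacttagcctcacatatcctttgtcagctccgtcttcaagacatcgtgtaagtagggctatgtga
Mpo, chr11:87793534-87793833, plus strand: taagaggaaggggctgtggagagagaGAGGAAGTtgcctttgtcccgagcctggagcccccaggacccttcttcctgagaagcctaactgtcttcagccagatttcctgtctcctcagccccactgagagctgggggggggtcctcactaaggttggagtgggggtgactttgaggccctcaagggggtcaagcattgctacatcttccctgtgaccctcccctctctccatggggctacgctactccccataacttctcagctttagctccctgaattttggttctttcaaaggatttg
Elane, chr10:79886062-79886361, plus strand: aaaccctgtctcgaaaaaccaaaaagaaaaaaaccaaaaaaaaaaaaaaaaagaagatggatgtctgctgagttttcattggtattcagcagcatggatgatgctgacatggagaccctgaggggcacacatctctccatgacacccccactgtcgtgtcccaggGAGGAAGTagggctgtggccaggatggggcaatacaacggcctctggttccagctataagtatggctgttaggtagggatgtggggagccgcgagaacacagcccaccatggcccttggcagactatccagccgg

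The window of Ngp held 3 matches to the C/EBP pattern, that of Lcn2 held 1, and that of S100a8 held 1 of each pattern. Mpo and Elane each held 1 match to the PU.1 pattern and 0 to the C/EBP pattern, and the same was found for Prtn3. The windows of Ctsg, Camp, Pglyrp1, Csf3r, Il1r2, Lrg1, Mcemp1 and Padi4 held neither pattern. None of the marked matches overlapped another. Of the 31 windows of members found on the array, which belong to 30 genes, 19 (61.3%) held the C/EBP pattern, beside 40.7% of all 32851 windows of the table. The PU.1 pattern was in 9 of the 31 windows (29%), beside 3.2% of all windows. A match is a run of letters and was not tested as a binding site. Several members lie side by side in the genome: the windows of Elane and Prtn3 on chromosome 10 start 6645 bases apart, and those of S100a8 and S100a9 on chromosome 3 start 26851 bases apart. Camp, Ngp, Ltf and Mmp8 all lie on chromosome 9.

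The cytosolic and secreted proteins were lower in GFP+ cells for 8 of 8 genes in each arm, with median differences of -5.96 in odor pools and -5.85 in vehicle pools. S100a8 and S100a9 encode the 2 subunits of calprotectin, the most abundant protein of the neutrophil cytosol. S100a8 was at 6.50, 5.52, 3.98 and 5.34 in odor GFP+ samples, against 15.66, 14.47, 14.17 and 14.89 in odor GFP- samples. It was at 5.90, 6.63, 4.45 and 5.47 in vehicle GFP+ samples, against 15.97, 14.95, 13.61 and 14.74 in vehicle GFP- samples. The fractions were far apart, with a difference of -9.46 ± 0.26 in odor pools (adjusted p = 1.55e-09) and -9.21 ± 0.26 in vehicle pools (adjusted p = 1.74e-09). Of its GFP+ samples, 3 of 4 in odor and 2 of 4 in vehicle pools lay under background, and raised to it the differences were -8.73 and -8.79.

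S100a9 was at 6.91, 5.35, 6.24 and 5.32 in odor GFP+ samples, against 15.72, 14.71, 13.93 and 15.23 in odor GFP- samples. Its vehicle levels were 6.40, 6.78, 5.95 and 5.33 in GFP+ samples, against 16.58, 15.26, 13.91 and 14.64 in GFP- samples. Its within-pool difference, -8.94 ± 0.37 in odor and -8.98 ± 0.37 in vehicle pools, stood beside -8.62 and -8.87 with values raised to background. Retnlg, a resistin-like secreted protein, was at 6.73, 5.10, 5.39 and 5.26 in odor GFP+ samples, against 16.58, 14.98, 15.10 and 15.88 in odor GFP- samples. In vehicle pools Retnlg was at 6.43, 5.84, 5.39 and 4.86 in GFP+ samples, against 17.21, 15.90, 14.34 and 15.39 in GFP- samples. Its difference was -10.02 ± 0.26 in odor pools (adjusted p = 1.07e-09) and -10.08 ± 0.26 in vehicle pools (adjusted p = 1.33e-09). In each arm 3 of 4 GFP+ samples lay under background, and raised to it the differences were -9.51 and -9.71.

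The rest of this class spanned a wide range. Anxa1, the steroid-induced annexin that many epithelia also make, had a difference of -6.46 ± 0.27 in odor pools and -6.78 ± 0.27 in vehicle pools, with 3 of 4 GFP+ samples of each arm under background (-6.22 and -6.52 raised to it). The stefin A genes Stfa2 and Stfa2l1, inhibitors of cysteine proteases, were under background in every GFP+ sample and at least 6.05-fold and 14.9-fold lower in odor pools, and at least 6.40-fold and 17.4-fold lower in vehicle pools. Probes of the stefin A family may share sequence, and cross-hybridisation between its members was not tested. Lrg1, a leucine-rich glycoprotein, was at least 3.89-fold lower in odor pools and 4.65-fold lower in vehicle pools. Padi4, which citrullinates histones in extracellular traps, was under background in 8 of 8 GFP+ and 6 of 8 GFP- samples, so its called differences of -2.24 ± 0.25 in odor pools and -2.08 ± 0.25 in vehicle pools have no readable size.

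Cebpe, the C/EBP factor that drives specific granule genes, had the smallest difference. It was at 3.49, 3.10, 3.37 and 3.62 in odor GFP+ samples, against 4.54, 4.31, 4.05 and 4.24 in odor GFP- samples. In vehicle pools it was at 3.66, 3.56, 3.68 and 3.04 in GFP+ samples, against 5.70, 4.54, 3.60 and 4.58 in GFP- samples. The fractions overlapped in the vehicle arm, and all 16 samples lay under background. Its difference was -0.89 ± 0.27 in odor pools (adjusted p = 0.0434) and -1.12 ± 0.27 in vehicle pools (adjusted p = 0.0133). The odor call was kept in 5 of 15 alternatives. It was lost when any single odor pool was left out (adjusted p from 0.0776 to 0.144) and without vehicle pool 2 (0.061) or vehicle pool 4 (0.0539). Median centring (0.0752), unmoderated variances (0.142) and fractions not paired (0.0516) also lost it. The sign of the odor-pool difference turned to 0.08 with values raised to background. The vehicle call was lost without vehicle pool 1 (0.0724) or vehicle pool 4 (0.0684), with unmoderated variances (0.0809) and with values raised to background (-0.01, adjusted p = 0.946).

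The receptors were lower in GFP+ cells for 3 of 3 genes in each arm, with median differences of -4.11 in odor pools and -4.08 in vehicle pools. Csf3r is the receptor for granulocyte colony stimulating factor. Its level was 4.60, 4.55, 5.19 and 4.33 in odor GFP+ samples, against 11.53, 9.06, 9.10 and 10.39 in odor GFP- samples. Vehicle pools had 5.21, 4.80, 4.42 and 5.12 in GFP+ samples, against 11.96, 10.17, 8.98 and 10.13 in GFP- samples. All GFP+ values lay under background, and Csf3r was at least 17.5-fold lower in odor pools (adjusted p = 5.01e-06 in the fit of values as deposited) and at least 22.2-fold lower in vehicle pools (adjusted p = 4.56e-06).

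Il1r2, the decoy receptor for interleukin 1, was at 4.01, 4.72, 4.63 and 4.46 in odor GFP+ samples, against 9.55, 7.92, 8.45 and 8.34 in odor GFP- samples. In vehicle pools it was at 4.55, 4.94, 4.52 and 4.73 in GFP+ samples, against 10.41, 8.99, 7.78 and 7.87 in GFP- samples. It was at least 6.37-fold lower in odor pools and 7.60-fold lower in vehicle pools. Ltb4r1, the high-affinity receptor for the chemoattractant leukotriene B4, was at 3.55, 4.43, 3.76 and 3.52 in odor GFP+ samples, against 7.68, 5.31, 4.41 and 7.45 in odor GFP- samples. Its vehicle levels were 3.50, 3.59, 3.36 and 3.17 in GFP+ samples, against 7.27, 5.87, 5.37 and 6.71 in GFP- samples. Of its GFP- samples 4 of 8 lay under background, and 1 odor GFP- sample overlapped the GFP+ samples. Its difference was -2.39 ± 0.56 in odor pools (adjusted p = 0.0104) and -2.90 ± 0.56 in vehicle pools (adjusted p = 0.00299). Raised to background, the differences were -0.75 (adjusted p = 0.256) and -0.58 (adjusted p = 0.433), and without odor pool 1 or odor pool 4 the odor adjusted p was 0.0589 or 0.0613.

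The integrins, Ly6 and other surface genes were lower in GFP+ cells for 10 of 10 genes in each arm, with median differences of -5.23 in odor pools and -5.38 in vehicle pools. Ly6c2 belongs to the Ly6C antigen of monocytes and neutrophils. It was at 4.40, 3.60, 3.75 and 4.40 in odor GFP+ samples, against 13.41, 12.24, 12.22 and 13.01 in odor GFP- samples. In vehicle pools Ly6c2 was at 4.48, 3.84, 3.26 and 3.85 in GFP+ samples, against 13.40, 12.76, 12.50 and 12.97 in GFP- samples. All its GFP+ values lay under background, and it was at least 113.7-fold lower in odor pools (adjusted p = 2.81e-11 in the fit of values as deposited) and at least 134.6-fold lower in vehicle pools (adjusted p = 1.77e-11).

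Itgam is the CD11b chain of the integrin Mac-1, which myeloid cells other than neutrophils also carry. It was at 5.64, 4.23, 4.63 and 5.08 in odor GFP+ samples, against 12.05, 10.59, 10.28 and 11.63 in odor GFP- samples. In vehicle pools Itgam was at 4.96, 4.34, 4.27 and 5.26 in GFP+ samples, against 12.38, 11.57, 9.92 and 11.13 in GFP- samples. It was at least 37.98-fold lower in odor pools and 42.7-fold lower in vehicle pools. Its partner chain Itgb2 was at least 15.9-fold and 17.0-fold lower, and Itgb2l, a beta 2-like integrin gene, at least 13.1-fold and 12.8-fold lower. Clec4e, the lectin receptor Mincle, was at 5.04, 5.09, 5.80 and 5.22 in odor GFP+ samples, against 11.99, 9.95, 9.02 and 10.50 in odor GFP- samples. In vehicle pools Clec4e was at 5.27, 5.68, 5.24 and 5.25 in GFP+ samples, against 12.32, 10.33, 8.64 and 10.09 in GFP- samples. The GFP- samples spread over more than 3 log2 units, and 3 of 4 odor and 4 of 4 vehicle GFP+ samples lay under background. Clec4e was at least 22.7-fold lower in vehicle pools (adjusted p = 6.32e-05 as deposited), and its odor difference was -5.08 ± 0.57 as deposited (adjusted p = 5.43e-05) and -4.47 ± 0.55 with values raised to background.

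Of the remaining surface genes, Cd177, a neutrophil adhesion glycoprotein, was at least 26.7-fold lower in odor pools and 24.1-fold lower in vehicle pools. Trem1, the amplifier of inflammatory signals, was at least 12.5-fold and 20.3-fold lower. Clec4d was at least 9.65-fold and 8.99-fold lower, and Mcemp1, a myeloid membrane protein, at least 6.51-fold and 7.17-fold lower. Trem3, an activating receptor of the same family as Trem1, had the smallest difference of the class, -2.43 ± 0.29 in odor pools and -2.38 ± 0.29 in vehicle pools, with 3 of 4 and 2 of 4 GFP+ samples under background (-2.16 and -2.26 raised to it).

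**Figure D2:**
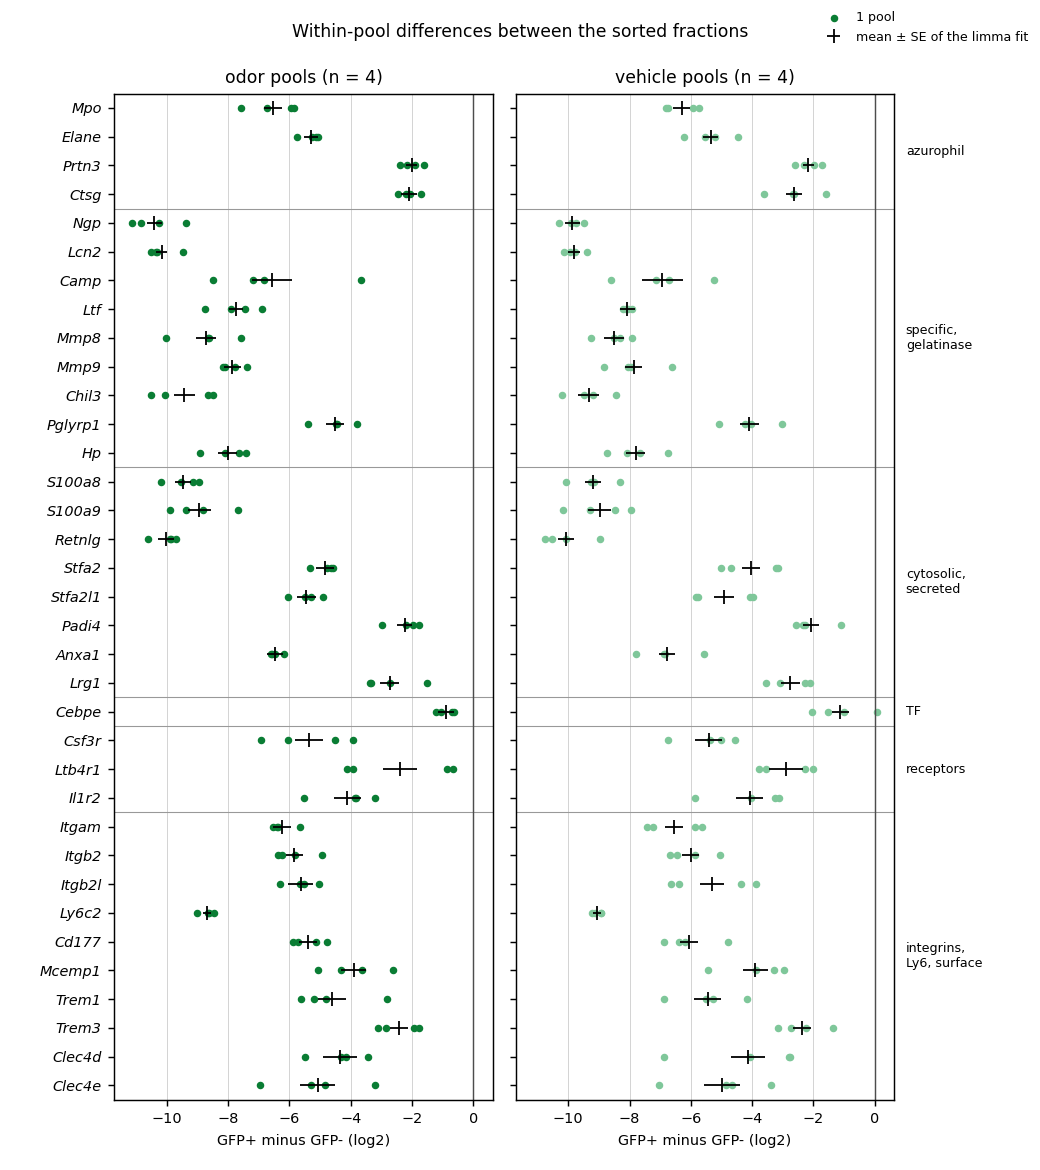
Within-pool differences GFP+ minus GFP- (log2, x axis) of the 35 members, with odor pools on the left and vehicle pools on the right; points are pools and bars the mean ± SE of the limma fit. All 35 means lie under 0 in both arms, from -10.41 for Ngp to -0.89 for Cebpe in odor pools.

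Genes of related neutrophil functions, taken from separate lists, moved the same way. The NADPH oxidase, which makes superoxide, was lower in GFP+ cells for 5 of 5 genes in each arm, with median differences of -5.70 in both. Rac2, the GTPase that activates it, differed by -6.68 ± 0.27 in odor pools and -7.00 ± 0.27 in vehicle pools, and Ncf1 by -6.58 ± 0.22 and -5.98 ± 0.22. Cyba, its membrane subunit that many cells make, had the smallest difference of that list, -2.81 ± 0.32 in odor pools and -3.19 ± 0.32 in vehicle pools. Raised to background, Rac2 was at -5.60 in odor and -6.08 in vehicle pools, Ncf1 at -6.39 and -5.93, and Cyba at -2.58 and -2.93. In leukotriene synthesis 4 of 5 genes were lower in each arm. Alox5ap differed by -4.88 ± 0.32 in odor pools and -5.54 ± 0.32 in vehicle pools, and Alox5 by -4.97 ± 0.30 and -4.77 ± 0.30, which became -2.44 and -2.60 with values raised to background. Lta4h, a widely made hydrolase, did not pass the test, with -0.30 ± 0.21 (adjusted p = 0.365) in odor pools and -0.57 ± 0.21 (adjusted p = 0.0917) in vehicle pools.

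Of 35 other neutrophil genes, 32 were lower in odor GFP+ cells and 31 in vehicle GFP+ cells, with 0 higher in either arm and median differences of -2.73 and -3.21. Spi1, which encodes PU.1, differed by -6.43 ± 0.19 in odor pools and -6.51 ± 0.19 in vehicle pools. Lyz2, the lysozyme of myeloid cells, differed by -5.98 ± 0.23 and -6.20 ± 0.23. Gfi1, a repressor needed for neutrophil maturation, was under background in all samples of both fractions, with -0.06 ± 0.13 (adjusted p = 0.792) in odor pools and -0.03 ± 0.13 (adjusted p = 0.897) in vehicle pools. Genes that attract neutrophils or arrest them at the vessel wall were a different picture. Of 12 such genes, 3 were lower and 1 higher in odor GFP+ cells, 3 were lower and 0 higher in vehicle GFP+ cells, and 11 of 12 lay under background in all GFP+ samples. Cxcl2, a chemokine that binds the neutrophil receptor Cxcr2 and that neutrophils themselves make, differed by -3.55 ± 0.50 (adjusted p = 0.000305) in odor pools and -4.17 ± 0.50 (adjusted p = 8.57e-05) in vehicle pools. With values raised to background the odor call of Cxcl2 was lost (-1.83, adjusted p = 0.0544) and its vehicle difference was -2.45 (adjusted p = 0.0129). Selp, P-selectin, was called lower at levels under background, and Icam1 was the third gene called lower in each arm. The gene called higher was Csf2, by 0.56 in odor pools (adjusted p = 0.0354), named after its values were seen. None of the 12 genes was over background in all odor GFP+ samples, so the size of the Csf2 difference is not readable.

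Markers of several other cell types moved between the fractions with the members. Of 13 genes of macrophages and dendritic cells, 6 were lower in odor GFP+ cells and 8 in vehicle GFP+ cells, with 0 higher. The summed level of that list (log2 of the sum of linear values) ran from 9.12 to 10.44 in odor GFP+ samples, against 12.49 to 13.39 in odor GFP- samples. In vehicle pools it ran from 9.31 to 10.54 in GFP+ samples, against 12.98 to 13.39 in GFP- samples. H2-Aa, an MHC class II chain, differed by -5.90 ± 0.22 in odor pools and -6.07 ± 0.22 in vehicle pools, and H2-Ab1 by -4.95 ± 0.34 and -4.93 ± 0.34. Such cells can also make Itgam, Itgb2, Ly6c2, Lyz2, Spi1 and the oxidase genes.

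Erythroid genes were lower for 6 of 7 in each arm, led by Car1 (-6.55 ± 0.49 in odor pools and -6.29 ± 0.49 in vehicle pools) and Rhag (-4.78 ± 0.41 and -5.07 ± 0.41). Their summed level was 12.99 to 13.37 in odor GFP+ samples, against 14.01 to 14.90 in odor GFP- samples. In vehicle pools it was 13.12 to 13.45 in GFP+ samples, against 14.10 to 14.98 in GFP- samples. In each arm 4 of 7 erythroid genes lay under background in all GFP+ samples. The GFP+ sum thus rests on the other genes of the list and is not a level of the whole list. Of 10 T and natural killer cell genes, 9 were lower in odor GFP+ cells and 8 in vehicle GFP+ cells, with Il7r at -4.20 ± 0.35 and -4.36 ± 0.35 and Cd3e at -2.39 ± 0.25 and -1.74 ± 0.25. Of 7 B cell genes, 6 and 5 were lower, with Cd79a at -4.03 ± 0.56 and -3.67 ± 0.56 and Cd79b at -3.89 ± 0.41 and -3.03 ± 0.41. Its seventh gene Ebf1, which olfactory neurons also use, lay over background in all 4 groups and sets that list's sum. Of 6 B cell precursor genes, 3 and 4 were lower, with Vpreb3 at -2.44 ± 0.29 and -1.91 ± 0.29. With values raised to background, the vehicle calls of Cd3e (-0.54, adjusted p = 0.082) and Vpreb3 (-0.44, adjusted p = 0.0799) were lost, while in odor pools Cd3e was at -0.98 and Vpreb3 at -0.80. In that setting Car1 was at -4.48 and -4.56, Rhag at -2.87 and -2.68, and Cd79b at -1.63 and -1.38. Il7r was then at -3.54 and -3.38, and Cd79a at -3.40 and -3.06.

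Among 9 genes of eosinophils, basophils and mast cells, 6 were lower in odor GFP+ cells and 5 in vehicle GFP+ cells, with Prss34 at -3.50 ± 0.24 and -2.69 ± 0.24 and Cpa3 at -2.49 ± 0.28 and -2.09 ± 0.28. None of 4 megakaryocyte and platelet genes was called in either arm (4 of 4 above 0, and 0 at an unadjusted p under 0.05). Non-blood cells moved too: 6 of 9 sustentacular cell genes were lower in each arm, with Krt18 at -3.68 ± 0.30 and -3.80 ± 0.30, and 5 of 9 immature neuron genes, with Nhlh1 at -4.97 ± 0.26 and -4.61 ± 0.26. Of 9 genes of stroma and vessels, 3 and 4 were lower, while 4 and 3 lay above 0. The median of that list was -0.05 in odor pools and -0.26 in vehicle pools. Rgs5, a pericyte gene, stood apart at -5.00 ± 0.16 and -5.12 ± 0.16. The next largest, Dcn, averaged -0.81 over the arms. Raised to background, Prss34 was at -2.84 in odor and -1.88 in vehicle pools, and Cpa3 at -1.85 and -1.16. Nhlh1 was at -3.50 and -3.66 in that setting. The part of any of these cell types in the members' differences was not tested.

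Within the GFP- fraction the members varied between pools more than most genes, and largely together. The range of a member's level over the 8 GFP- samples had a median of 2.24, from 0.67 for Prtn3 to 4.57 for Camp, beside a median of 0.86 over all genes. It was 1.50 without both pools numbered 1 and 1.72 without both pools numbered 3. Wide ranges were not particular to the members. The median range was 2.69 for B cell genes, 2.15 for other neutrophil genes and 1.93 for eosinophil, basophil and mast cell genes. It was 1.11 for macrophage and dendritic cell genes and 0.44 for mature neuron genes. In GFP- cells of pool 1 all 35 members lay above their own mean over the 8 samples in the odor arm, and all 35 in the vehicle arm, where 48.1% and 49.4% of all genes did. Of the 35 members, 8 had their highest GFP- level in odor pool 1, 26 in vehicle pool 1 and 1 elsewhere. In vehicle pool 3 only 1 member lay above its mean, in odor pool 2 only 1 and in odor pool 3 only 5. In vehicle pool 3 fell the lowest level of 21 members and in odor pool 3 that of 7.

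**Figure D3:**
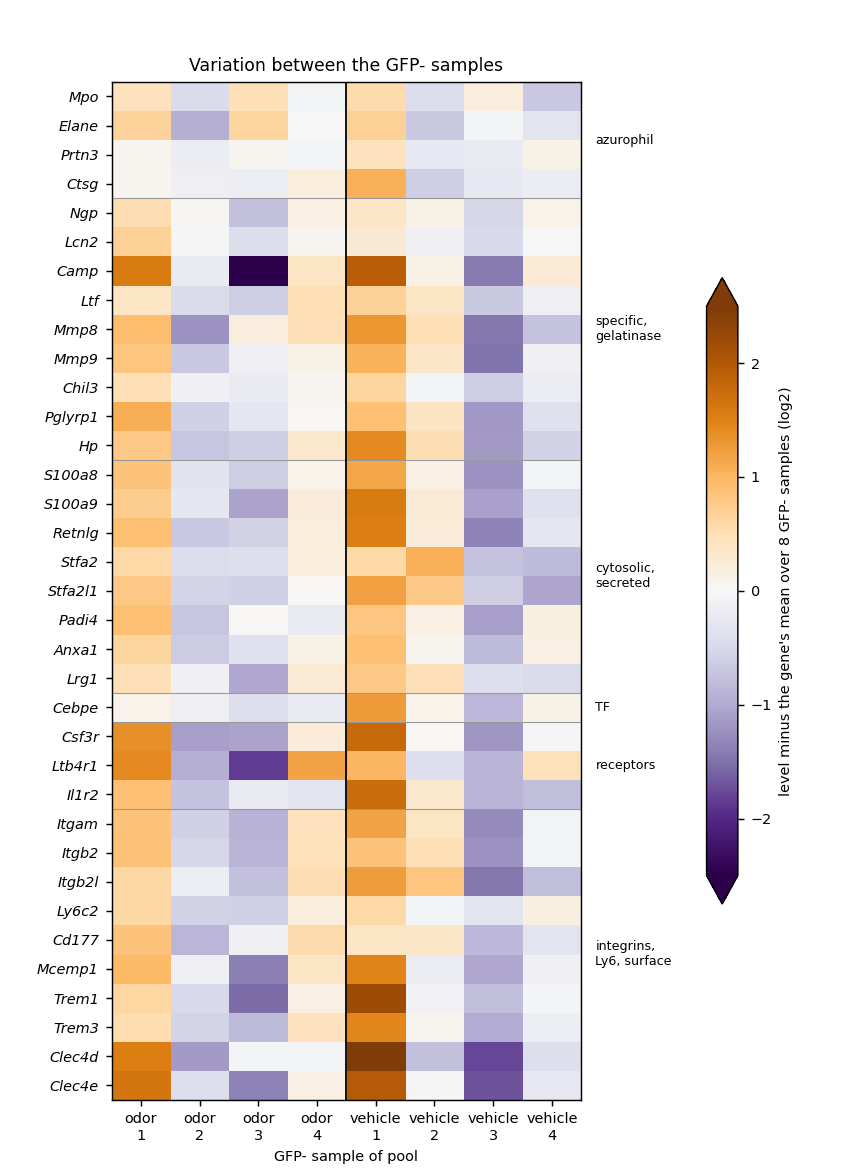
Deviation of each member's level from its own mean over the 8 GFP- samples (log2, colour scale capped at the ends), with members in rows by role and pools in columns, odor left of vehicle. Odor pool 1 and vehicle pool 1 are above the mean for 35 of 35 members each.

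The roles did not follow this pattern equally. The median deviation of the receptors was 1.37, -0.95, -1.07 and 0.23 in odor pools 1 to 4 and 1.75, 0.00, -0.88 and -0.03 in vehicle pools 1 to 4. For the specific and gelatinase granule genes it was 0.79, -0.47, -0.41 and 0.15 in odor pools and 0.89, 0.37, -1.15 and -0.14 in vehicle pools. The azurophil granule genes had 0.25, -0.32, 0.27 and -0.03 in odor pools and 0.63, -0.53, -0.12 and -0.24 in vehicle pools. Odor pool 3, low for receptors and specific granule genes, was on the high side for the azurophil genes Mpo and Elane. Prtn3 (7.73) and Ctsg (5.87) were there close to their medians over the GFP- samples (7.68 and 5.88).

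Camp and Mpo, a pair chosen after the values were seen, are an example. Camp was at 12.58, 10.81, 8.37 and 11.39 in odor GFP- samples and at 12.93, 11.14, 9.59 and 11.28 in vehicle GFP- samples, lowest in pool 3 of both arms. Mpo in the same samples, given above, was at 12.60 in odor pool 3, higher than in 6 of the other 7 samples. Camp lies under background in every GFP+ sample, at 4.06, 3.97, 4.70 and 4.18 in odor pools and 4.32, 4.02, 4.35 and 4.56 in vehicle pools, so its spread comes from the GFP- samples. By the median range over GFP- samples, azurophil genes (1.46 over 4 genes) varied less than receptors (2.98 over 3 genes), with specific and gelatinase genes (2.24 over 9 genes) and surface genes (2.58 over 10 genes) between them. These are descriptions of 8 samples, with no test.

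**Figure D4:**
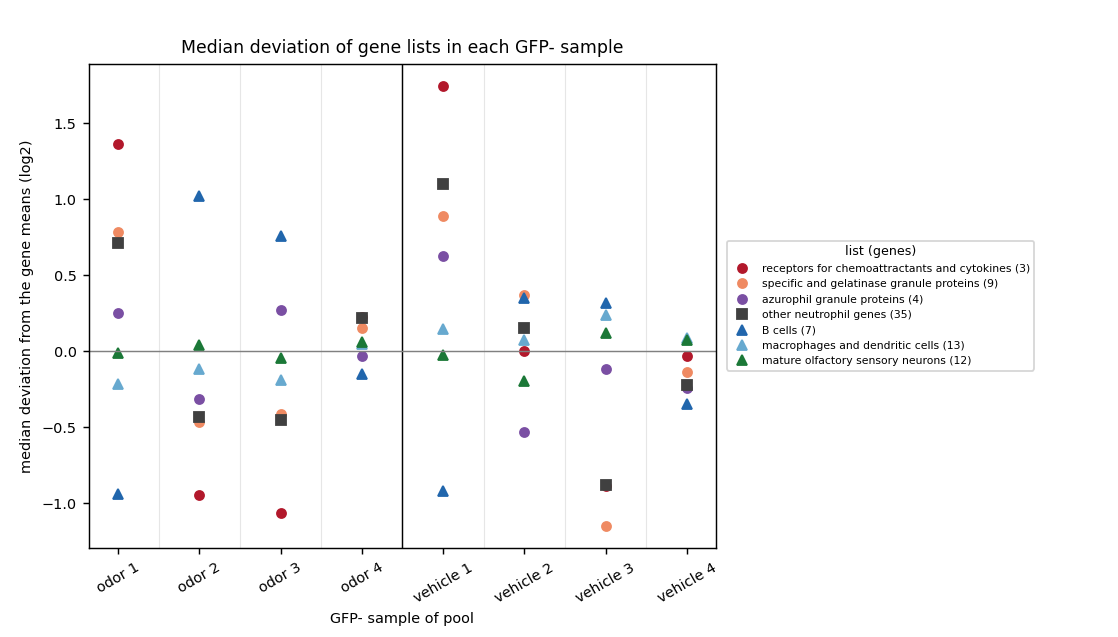
Median deviation (log2, y axis) of gene lists from their gene means in each of the 8 GFP- samples (x axis), with the number of genes of a list in brackets. Other neutrophil genes stand at 0.71 in odor pool 1 and 1.10 in vehicle pool 1, B cell genes at -0.94 and -0.92.

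Other lists moved with the members between the GFP- samples. The 35 other neutrophil genes had median deviations of 0.71, -0.43, -0.45 and 0.22 in odor pools and 1.10, 0.16, -0.88 and -0.22 in vehicle pools. The 7 B cell genes lay on the other side of their mean from the members in all samples but vehicle pools 2 and 4, with -0.94, 1.02, 0.76 and -0.15 in odor pools and -0.92, 0.35, 0.32 and -0.35 in vehicle pools. Macrophage and dendritic cell genes stayed between -0.22 and 0.24, mature neuron genes between -0.20 and 0.12, and all genes between -0.01 and 0.02. Other lists moved in single pools: sustentacular cell genes were at 0.68 and immature neuron genes at -0.41 in vehicle pool 1. Eosinophil, basophil and mast cell genes were at 0.59 in odor pool 1, -0.52 in vehicle pool 2 and -0.37 in vehicle pool 3. B cell precursor genes were at 0.37 in odor pool 1, 0.41 in vehicle pool 1 and -0.44 in odor pool 2. Erythroid genes were at 0.74, -0.95, -0.07 and 0.16 in odor pools and 0.26, -0.27, -0.36 and 0.15 in vehicle pools. The labels give the same number to an odor and a vehicle pool but do not say what a number stands for, and what same-numbered pools shared was not tested.

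In GFP+ samples most members lay under background, so their variation between pools has no readable size. Lcn2 was over the background median in all 8. It was at 8.31 and 8.02 in pool 1 of the odor and vehicle arms and between 6.18 and 7.33 in the other 6 samples. Macrophage and dendritic cell genes were also highest in GFP+ samples of pool 1, at 0.60 in the odor arm and 0.45 in the vehicle arm, beside -0.33 to -0.06 in the other 6 samples. The part of cells or RNA carried over from the GFP- fraction in these levels was not tested.

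No member differed detectably between odor and vehicle. In GFP- samples 0 of 35 members were called between odor and vehicle, 0 passed an unadjusted p under 0.05, and the median difference was -0.06 (0.00513% of all genes were called). The gene called was Olfr76, an odorant receptor, with a difference of -1.95 ± 0.21 (adjusted p = 0.0292). Trem1 had the largest difference, -0.64 ± 0.61, with levels of 10.47, 9.36, 8.33 and 10.00 in odor GFP- samples, against 12.06, 9.78, 9.06 and 9.81 in vehicle GFP- samples. The groups overlapped widely, and the 95% interval ran from -1.98 to 0.71. Camp followed at -0.45 ± 0.85 (interval -2.32 to 1.42), then Cebpe at -0.32 ± 0.35, Csf3r at -0.29 ± 0.65 (interval -1.73 to 1.15) and Cd177 at 0.21 ± 0.38. The sign turned when single pools were left out, for Camp to 0.35 without odor pool 3 and 0.11 without vehicle pool 1, and for Cebpe to 0.04 without vehicle pool 1. For Csf3r it turned to 0.26 without vehicle pool 1, 0.03 without odor pool 2 and 0.02 without odor pool 3. For Cd177 it was -0.04 without odor pool 1 or without vehicle pool 3.

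These intervals set what the design could show. For Ngp the GFP- difference was -0.04 with an interval from -0.65 to 0.58, for Lcn2 0.16 from -0.39 to 0.70, and for Mpo 0.20 from -0.46 to 0.87. A change of those genes as large as 1 log2 unit lies outside the intervals. For most members a change of that size, up or down, lies inside the interval, so it could have been missed. Among them were S100a9 (-0.20, from -1.36 to 0.96), Retnlg (-0.07, from -1.26 to 1.12) and Mmp8 (0.21, from -1.09 to 1.51). Itgam (-0.11, from -1.24 to 1.02), Clec4d (0.16, from -1.67 to 1.99) and Clec4e (0.02, from -1.62 to 1.66) were others.

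**Figure D5:**
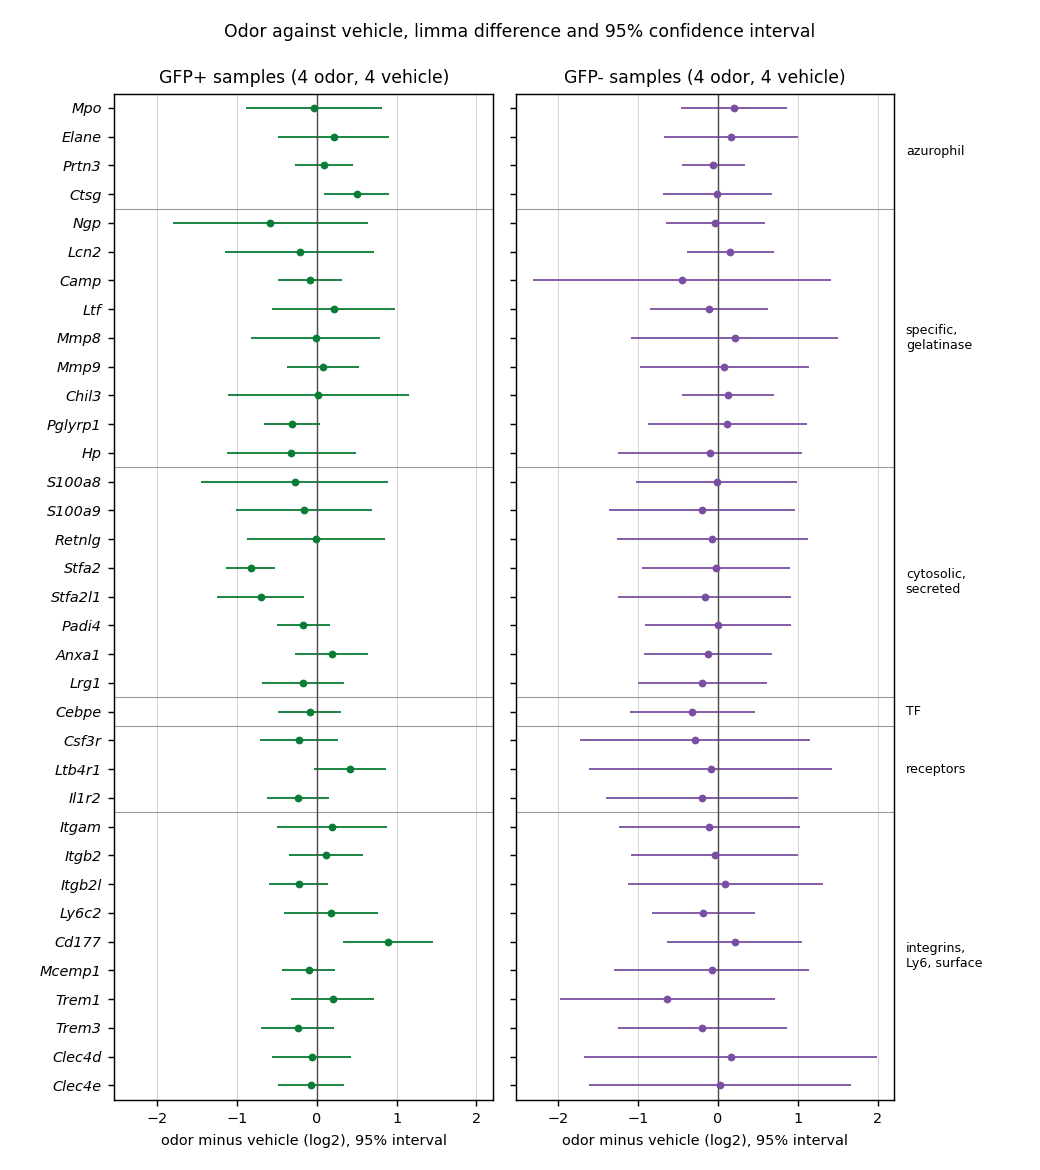
Odor minus vehicle difference (log2, x axis) of the 35 members with its 95% confidence interval from limma, in GFP+ samples on the left and GFP- samples on the right, from 4 odor and 4 vehicle samples each. In GFP- samples all 35 intervals include 0.

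In GFP+ samples 0 of 35 members were called (0% of all genes, with 1070 genes at an unadjusted p under 0.05) and 4 members had an unadjusted p under 0.05. With the replicate number as a block, 0 members were called and 5 had an unadjusted p under 0.05. Cd177 was at 5.65, 4.87, 5.29 and 5.19 in odor GFP+ samples, against 4.72, 3.99, 4.89 and 3.82 in vehicle GFP+ samples, a difference of 0.90 ± 0.25 (adjusted p = 0.891). Stfa2 was at 3.73, 3.48, 3.47 and 3.94 in odor GFP+ samples, against 4.37, 4.53, 4.53 and 4.51 in vehicle GFP+ samples, a difference of -0.83 ± 0.14 (adjusted p = 0.741). The groups overlapped for Cd177 and not for Stfa2, and all of these values lay under background. Stfa2l1 differed by -0.70 ± 0.25 and Ctsg by 0.50 ± 0.18 (adjusted p = 0.891 for each), also under background, and Ngp by -0.58 ± 0.55 (adjusted p = 0.973). The test of whether the odor changed the gap between fractions called 0 of 35 members (0% of all genes, with 654 genes and 0 members at an unadjusted p under 0.05). Its largest values were 0.83 ± 0.63 for Trem1, -0.80 ± 0.41 for Stfa2, 0.69 ± 0.41 for Cd177, -0.54 ± 0.35 for Ngp and -0.53 ± 0.45 for Stfa2l1 (adjusted p = 1 for each).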

How the data were processed

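The deposited series matrix holds 1 value per probe and array. The submitters' processing notes name Affymetrix Expression Console. Its version and its correction, scaling and summary settings were not given in the sources used here. For this reason the authors' deposited values were taken as log2, inferred from their range. Per the labels, RNA was labelled from 50 to 100 ng per sample. Of 28846 probes, 19572 had 1 gene symbol, 0 several and 9274 none. Where a gene had more than 1 probe (55 genes), the brightest by mean level stood for it, which left 19505 genes. Array medians ran from 6.05 to 6.39. The number of arrays limits the precision. Promoter windows came from a RefSeq table of GRCm38.p6, which held 33 of the 38 listed genes.

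Tests used limma 3.58.1 in R 4.3.3. Fractions were compared through the 8 within-pool differences, since both fractions came from the same mice (their deviations from the group means correlated at 0.109 to 0.249 across genes). Odor and vehicle were compared within each fraction over 8 samples, and through the within-pool differences. P-values were adjusted over all 19505 genes at a threshold of 0.05. The fitting was tested on simulated data. Same-numbered odor and vehicle samples correlated at 0.114 to 0.242 in GFP+ cells and 0.066 to 0.332 in GFP- cells. For the within-pool differences the correlation was 0.097 to 0.305. The main tests and the plotted intervals did not use the numbers, since the labels do not say what a number stands for. The fit with the replicate number as a block changed no call of a member. The title of a vehicle pool repeats the number 3; it was numbered 4 here from its pool code.

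A fold bound compares the GFP- mean with the higher of the GFP+ value and the background median of each array, on samples averaged in log2. Members could all be named; values per sample are given for the 3 members of each role with the highest mean, those with the smallest and largest difference, and, for odor against vehicle, those among the 5 largest differences that are described. Of each other list the 2 largest differences were open to naming, and for functional lists also the smallest. The members and all lists were chosen with earlier results of these data known. Alternatives were median centring, quantile normalization, values raised to the background median, a filter on dim genes, the mean over probes, unmoderated variances, no pairing of fractions, a block by replicate number, fits by arm, a random pool effect and each pool left out.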

Additional observations from a re-analysis of the deposited data

Results flagged for a closer look

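Within groups of 4 samples, 4 of 210 checked sets of values held a sample far from the other 3, where chance gives about 5% of sets. All 4 were in vehicle GFP+ samples and under or near background. Prtn3 was at 5.75 in vehicle GFP+ pool 3, beside 5.44 to 5.50 in the others. Stfa2 was at 4.37 in vehicle GFP+ pool 1, beside 4.51 to 4.53. Mcemp1 was at 5.15 in vehicle GFP+ pool 2, beside 4.65 to 4.67. Clec4e was at 5.68 in the same sample, beside 5.24 to 5.27. The cause was not tested.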

How the results depend on the processing

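Of the 35 members, 31 kept their call of lower in GFP+ cells in all 16 alternatives of each arm, and Cebpe, Ctsg, Padi4 and Ltb4r1 lost it in some. The count called lower was 31 in each arm with values raised to background, and without each pool in turn 33 to 35 in odor and 34 to 35 in vehicle pools. The members' median was -4.47 in odor and -4.51 in vehicle pools with values raised to background. Median centring moved the median of all genes to 0.34 in odor and 0.26 in vehicle pools and the genes called to 8224 (78.5% higher, against 42.9% as deposited) and 5658 (67.6%, against 45.1%). Quantile normalization gave 56.6% and 58.4% higher. Members over background in a GFP+ sample had a median of 2 when the 90th percentile of the background probes was used.

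With values raised to background, where genes dim in both fractions take the difference of the backgrounds, the odor-pool difference of Cebpe, Gfi1 and Selp was 0.0847 and the vehicle-pool difference of Il17c was -0.0099. In the same setting the odor effect on the gap between fractions was 0.0818 for Stfa2, 0.2265 for Stfa2l1 and -0.1520 for Cd177, and the odor effect in GFP+ samples was 0.0573 for Stfa2 and Stfa2l1. Gfi1 turned to 0.1628 in odor and 0.1188 in vehicle pools with median centring, and to 0.0729 and 0.1454 with quantile normalization.

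Without single pools, Gfi1 ranged from -0.0870 to 0.0101 in odor and -0.1063 to 0.0280 in vehicle pools, Il17c from -0.0296 to 0.2580 and -0.0346 to 0.1363, and Gp9 from -0.0288 to 0.2605 in vehicle pools. The odor effect in GFP- samples ranged from -1.0474 to 0.3547 for Camp, -0.6542 to 0.0445 for Cebpe, -0.7941 to 0.2589 for Csf3r and -0.0376 to 0.5362 for Cd177. Over all genes it called 0 to 1 genes without single pools and 0 with unmoderated variances. The test of the gap called 1 gene with the fractions of a pool not paired and 1 with values raised to background.

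With a replicate block, 0 members were called between odor and vehicle in GFP+ samples, in GFP- samples and for the gap (5, 1 and 2 at an unadjusted p under 0.05, against 4, 0 and 0 without it). With the 2 fractions of a pool not paired, 34 members were lower in odor pools and 35 in vehicle pools. The ranges over GFP- samples without pools 1 or 3 were chosen after seeing the data. Leaving out 1 GFP- sample gave medians of 1.82 to 2.24. Signal over background limits every GFP+ level of the members. The cause of these changes was not tested.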
